A study of Homo sapiens with 6 samples.

Results

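The genes described here are the expressed genes of the distal long arm of chromosome 11 in 2 related human breast cancer cell lines, and how their RNA levels differed between the lines. A row of the count table was included when it lay on chromosome 11, started after 70 Mb (GRCh38 coordinates) and had a mean of at least 1 CPM (counts scaled to the library total) over the 6 libraries. This rule took 275 of the 61541 rows of the table. The region held 1400 rows in all, of which 1125 were under 1 CPM and 909 had no counts. Of the 275 genes, 249 were protein coding, and all 275 passed the filter on low counts and were tested. The region was chosen by the fold changes of its genes between these lines, which were known to be mostly lower in one of them, so the direction and size of that shift are given below as a description. The same holds for the calls of single genes, which come from the same comparison.

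The study compared MDA-MB-231, the parental line, with MDA-MB-231-D3H2LN (abbreviated MDA231-LN), each with 3 RNA libraries. MDA-MB-231 is a mesenchymal-like, triple-negative breast cancer line, and MDA-MB-231-D3H2LN is a commercial subline of it, known as a bioluminescent line recovered from a lymph node metastasis in a mouse. Both were grown untreated in high-glucose DMEM with 10% fetal bovine serum. Whether libraries of the same line stem from independent cultures is not in the labels, and p-values then measure only the spread between these libraries, which may be technical. Each line is represented by 1 stock, and what separates the lines by descent, by labelling or by time in culture cannot be told apart here. In bulk RNA, fewer cells of a type and less RNA per cell cannot be told apart either.

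The long arm of chromosome 11 holds several gene groups that are well known in breast cancer. Its proximal end carries CCND1, which encodes cyclin D1, with FADD, CTTN, PAK1, GAB2 and RSF1 beyond it, a stretch that is often amplified in these tumours. Farther out lie YAP1, the effector of the Hippo pathway, the apoptosis inhibitors BIRC2 and BIRC3, the matrix metalloproteinase cluster, the DNA damage kinases ATM and CHEK1, and the tumour suppressor CADM1, in a stretch that is often lost. A change in the copy number of a chromosome arm usually moves the RNA of many neighbouring genes in the same direction, while a gene regulated by itself departs from its neighbours. DNA copy number was not measured in these samples, and its part in the results was not tested.

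Promoters are shown for members at both ends of the results described below, so that their base composition can be compared. B3GAT1, NTM and SORL1 rose against their neighbours, GLB1L3 and EED fell below theirs, and RNF121 moved with the block around it. Each sequence is the 250 bases before the RefSeq start (GRCh38.p14), written 5′ to 3′ on the gene's strand, with CG dinucleotides in capitals.
B3GAT1, chr11:134412243-134412492, minus strand: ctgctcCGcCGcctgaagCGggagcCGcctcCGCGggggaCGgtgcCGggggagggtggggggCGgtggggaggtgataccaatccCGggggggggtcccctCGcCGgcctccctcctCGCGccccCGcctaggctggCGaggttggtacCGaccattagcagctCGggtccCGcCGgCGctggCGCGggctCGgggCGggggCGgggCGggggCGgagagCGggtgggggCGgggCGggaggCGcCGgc
GLB1L3, chr11:134276129-134276378, plus strand: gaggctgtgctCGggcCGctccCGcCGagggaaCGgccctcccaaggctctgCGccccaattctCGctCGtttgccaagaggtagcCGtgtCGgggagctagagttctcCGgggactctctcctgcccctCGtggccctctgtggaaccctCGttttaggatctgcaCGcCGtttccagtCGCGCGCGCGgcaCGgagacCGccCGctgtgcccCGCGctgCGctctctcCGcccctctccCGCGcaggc
NTM, chr11:131370365-131370614, plus strand: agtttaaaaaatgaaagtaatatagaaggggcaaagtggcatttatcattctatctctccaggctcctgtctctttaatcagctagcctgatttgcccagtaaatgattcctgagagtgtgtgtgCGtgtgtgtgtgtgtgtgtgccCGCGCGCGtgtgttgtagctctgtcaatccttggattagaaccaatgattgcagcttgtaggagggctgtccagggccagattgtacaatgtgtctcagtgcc
SORL1, chr11:121452064-121452313, plus strand: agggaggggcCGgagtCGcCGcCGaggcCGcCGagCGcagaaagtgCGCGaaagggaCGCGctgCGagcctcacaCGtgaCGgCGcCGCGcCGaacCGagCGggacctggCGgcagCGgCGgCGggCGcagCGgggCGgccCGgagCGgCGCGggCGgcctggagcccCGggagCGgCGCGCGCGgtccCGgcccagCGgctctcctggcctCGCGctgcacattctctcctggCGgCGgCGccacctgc
EED, chr11:86244503-86244752, plus strand: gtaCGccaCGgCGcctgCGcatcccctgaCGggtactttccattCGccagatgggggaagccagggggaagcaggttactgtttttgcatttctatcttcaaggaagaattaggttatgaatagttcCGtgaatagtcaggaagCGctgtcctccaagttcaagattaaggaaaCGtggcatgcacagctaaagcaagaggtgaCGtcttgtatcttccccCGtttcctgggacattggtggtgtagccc
RNF121, chr11:71928796-71929045, plus strand: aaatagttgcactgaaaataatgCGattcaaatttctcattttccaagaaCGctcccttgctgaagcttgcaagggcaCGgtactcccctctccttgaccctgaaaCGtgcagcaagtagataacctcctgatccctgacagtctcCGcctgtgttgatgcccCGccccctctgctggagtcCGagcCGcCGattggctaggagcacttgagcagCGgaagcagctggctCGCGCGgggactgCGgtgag
These stretches held 33 CG dinucleotides for B3GAT1, 29 for GLB1L3, 5 for NTM, 45 for SORL1, 11 for EED and 14 for RNF121. Among these 6, those that rose ranged from 5 to 45 and those that fell below their neighbours had 11 and 29, so the ranges overlapped. RefSeq promoters of 300 bases (250 before and 50 after the start) were matched by symbol for 207 of the 275 members. Their median was 26 CG dinucleotides, against 14 over the 35116 promoters of the table. Those 35116 were not limited to expressed genes, as the members are. No share among expressed genes elsewhere was computed, so differences from all promoters cannot be read as particular to the region. Members that rose against their neighbours had a median of 25 over 14 promoters, those that fell below had 24 over 9, and the rest had 26 over 184. GGGCGG, searched on both strands, was in 71.5% of member promoters and 45.0% of all promoters, and TATAAA was in 4.35% and 11.5%. CCAAT was in 40.1% against 34.6%, TGANTCA in 2.42% against 7.71% and CACGTG in 8.70% against 7.26%. A match describes the letters and is no binding site.

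Library totals ran from 16461578 to 19171017 counts. Libraries of the same line differed from each other by more than sampling noise, at a chi-square of 3.73 to 8.47 per degree of freedom, so none was a copy of another. VIM (vimentin) and CD44, which mark this mesenchymal-like line, were abundant in all 6 libraries and higher in MDA231-LN, without overlap. VIM was at 1059 to 1117 CPM in parental and 1883 to 2125 in MDA231-LN, and CD44 was at 519 to 535 and 981 to 1009. The oestrogen receptor ESR1 was at 0 to 1.11 CPM, the progesterone receptor PGR at 0 to 0.0609 and the epithelial cadherin CDH1 at 0.0609 to 0.461. ERBB2, at 87.6 to 95.4, and the epithelial marker EPCAM, at 11.6 to 17.7, were higher than these. The leukocyte marker PTPRC was at 0.305 to 0.697 CPM, the endothelial marker PECAM1 at 6.91 to 10.9 and the fibroblast marker COL1A1 at 9.06 to 17.9. CPM values of single libraries and of a line, those of the markers above included, use library sizes scaled by TMM, edgeR's normalisation. The mean CPM over all 6 libraries, used for limits on level, uses library totals. A fold change is MDA231-LN relative to parental, on the log2 scale unless it is written as a fold.

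Most of the 275 genes were lower in MDA231-LN. In the edgeR quasi-likelihood fit over 14176 genes, 219 members were lower and 19 were higher at a Benjamini-Hochberg adjusted p under 0.05, and 37 were not called. Over all tested genes the same rule called 31.2% lower and 31.6% higher, and over the 12839 with a mean of at least 1 CPM, 33.6% and 31.5%. The median fold change of the members was -1.002 (quartiles -1.47 and -0.65), which is 2.00-fold lower, beside a median of 0.02 over all tested genes. A fall of at least 2-fold was called for 137 members, against 7.53% of all tested genes (7.45% of those with at least 1 CPM), and a rise of at least 2-fold for 15, against 13% (11%). In 223 members all 3 MDA231-LN libraries lay below all 3 parental libraries (32.8% of all tested genes, 35.2% of those with at least 1 CPM), and in 22 they lay above (33.8% and 33.4%).

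**Figure D1:**
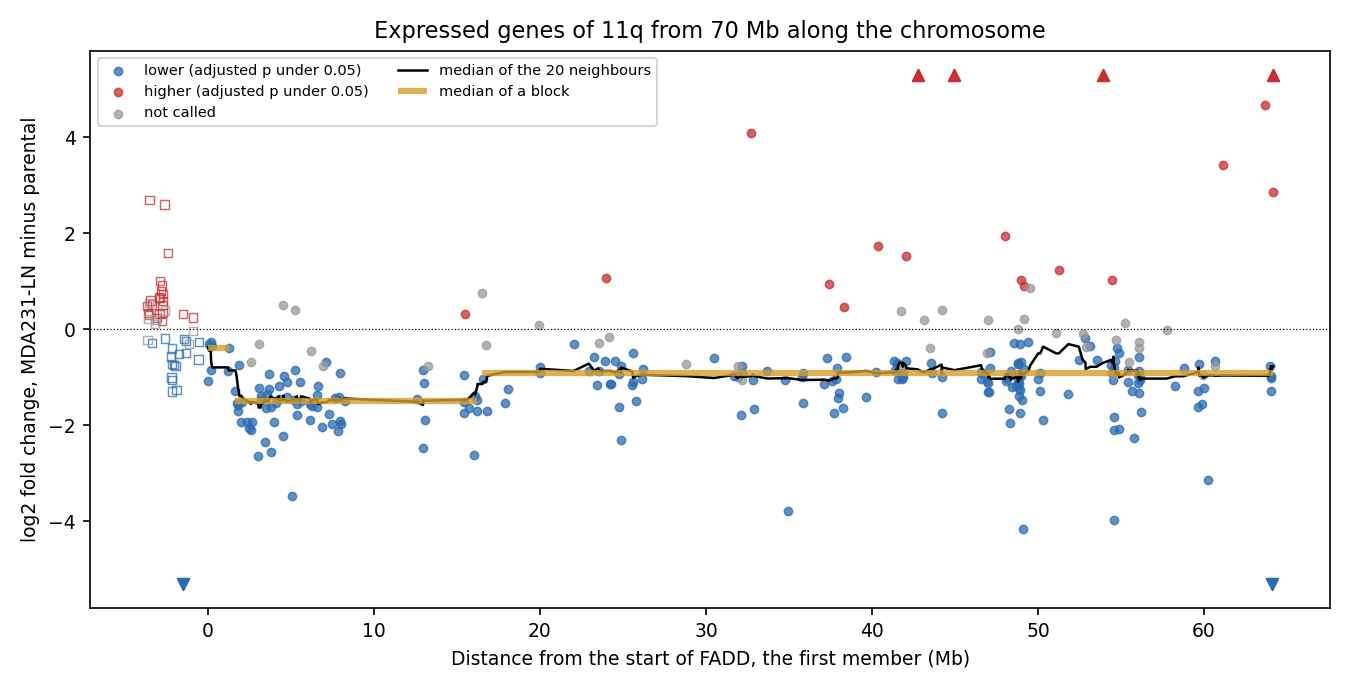
Each point is 1 expressed gene, placed by its distance in Mb from the start of FADD, the first member (horizontal axis), and by its log2 fold change, MDA231-LN minus parental (vertical axis). Open squares are the 48 expressed genes before FADD, triangles mark genes beyond 5 on the scale, and the black line is the median of the 20 nearest expressed neighbours. Orange bars are the medians of the members in each of the 3 blocks, at -0.40, -1.49 and -0.91.

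The shift was visible in the raw share of sequence as well. Members took 2.35% ± 0.0101 of the counts of the parental libraries and 1.31% ± 0.00164 of those of MDA231-LN (SD, n = 3 each). Chromosome 11 up to 70 Mb took 3.66% ± 0.0338 and 3.92% ± 0.0324. Its 440 expressed genes had a median fold change of 0.03, with 138 lower and 134 higher. The drop thus lay in the distal long arm and did not extend over the whole chromosome. Other stretches of the genome that were examined for comparison had medians of -0.85 (257 genes of 1q from 140 to 170 Mb), 0.53 (362 genes of 1p from 30 to 100 Mb), 0.67 (268 genes of 7q from 100 Mb) and 0.27 (497 genes of chromosome 4). In the 1q stretch, 196 of 257 genes were lower and 22 higher. These stretches were themselves chosen regions and no random sample of the genome. No test was made between these stretches.

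The shift was similar on both strands and over gene lengths, and less uniform among genes with few counts. The median was -1.02 for the 141 members on the plus strand and -0.98 for the 134 on the minus strand. It was -0.97 in the 91 shortest genes, -0.98 in the next 92 and -1.05 in the 92 longest. Among the 92 members with the highest mean CPM, 90 of 92 were lower and 1 was higher, with a median of -1.04. Among the 91 with the lowest, 43 of 91 were lower and 14 were higher, with a median of -0.77. Protein-coding members had 209 of 249 lower, and the other 26 members, mostly long noncoding RNAs and pseudogenes, had 10 lower and 2 higher.

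Where the shift began was read from segments of constant median along the 715 expressed genes of chromosome 11. With the penalty chosen for the main description, 1 segment held every member, and it began before the region did. It ran from UNC93B1 (chr11:67991100-68004982), a chaperone of Toll-like receptors, to B3GAT1, the last expressed gene of the arm, with 295 genes and a median of -0.97. The segment before it, from 65.7 Mb to FAM86C2P, held 59 genes with a median of 0.51, and the one before that, from PLAAT4 to RNASEH2C, held 61 genes with a median of -0.49. The first 300 genes, from BET1L to SLC3A2, had a median of 0.06. The low stretch thus started near 68 Mb, and the limit of 70 Mb lies inside it. Leaving out any 1 of the 6 libraries left this start at the same gene.

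Between UNC93B1 and 70 Mb there were 20 expressed genes, of which 16 were lower and 2 higher, with a median of -0.54. CHKA, a choline kinase, fell by 1.29 on the log2 scale, the Wnt co-receptor LRP5 fell by 1.26 and CCND1 fell by 0.63. GAL, which encodes the neuropeptide galanin, was at 6.40, 6.97 and 4.87 CPM in parental and had no counts in any MDA231-LN library. MYEOV and TESMIN were higher by 0.24 and 0.32. The last expressed gene before the limit, LTO1, had a fold change of -0.27 ± 0.09 (SE), and the first member, FADD, had -1.07 ± 0.09. At the limit on level, the member with the lowest mean was ARHGAP20 at 1.01 CPM with a fold change of 1.74 (2.40 without parental replicate 2), and the row just under it was KCTD21 at 0.991 CPM with -2.24.

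A lower penalty per boundary, 1 times instead of 2 times the same product and chosen after seeing the data, divided the low stretch into 3 blocks of different depth. The proximal block ran from UNC93B1 to NADSYN1, with 27 genes and a median of -0.51, and its 7 members had a median of -0.40. The middle block ran from XNDC1N at chr11:71865504 to the end of ME3 at 86672636 and held 75 members with a median of -1.49, which is 2.82-fold lower. The distal block, from ENSG00000255250 at chr11:86727355 to B3GAT1, held 193 members, with a median of -0.91, which is 1.88-fold lower. The same boundaries came out with a minimum of 10 or 25 genes per segment and with each library left out in turn. Since the blocks were drawn from the fold changes themselves, their difference is a description and was not tested.

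The blocks had nearly the same depth in each of the 3 MDA231-LN libraries. Relative to the parental mean, the median log2 level of the middle block was -1.51, -1.47 and -1.50 in the 3 MDA231-LN libraries and -0.01, 0.02 and 0.01 in the parental ones. The distal block was at -0.90, -0.88 and -0.93. The 7 members of the proximal block were at -0.37, -0.38 and -0.59. In the MDA231-LN libraries the medians of the 2 blocks did not overlap, although single genes ranged from -3.48 to 0.50 in the middle block and from -7.52 to 12.71 in the distal block. In the same libraries chromosome 11 up to 70 Mb stayed at 0.03, 0.01 and 0.02. The share of counts fell from 0.459% ± 0.00804 to 0.165% ± 0.00185 in the middle block and from 1.84% ± 0.0123 to 1.10% ± 0.00414 in the distal block (SD, n = 3 each).

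**Figure D2:**
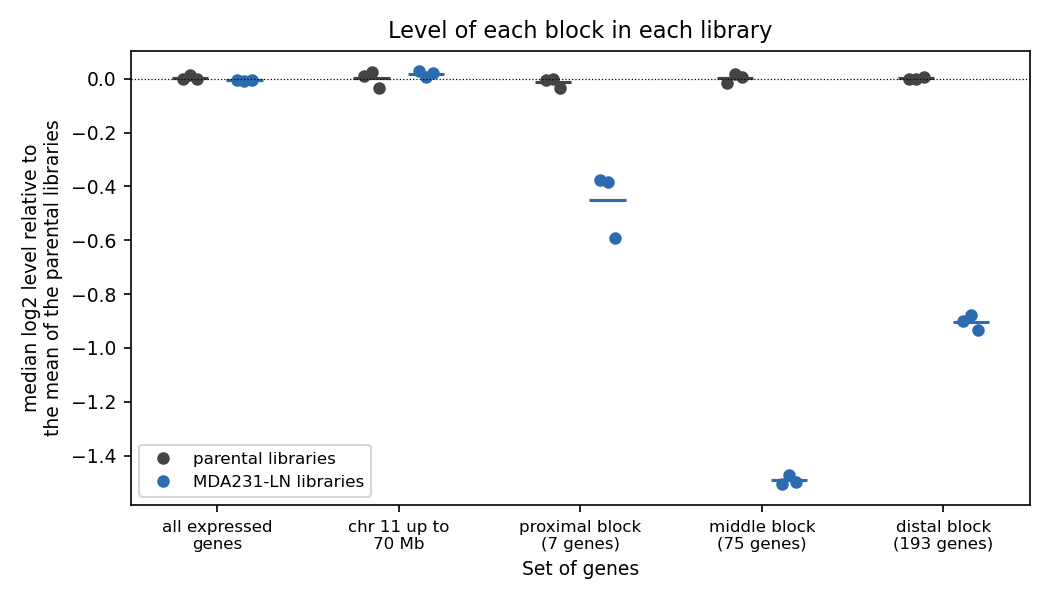
Each point is the median log2 level of a set of genes in 1 library, relative to the mean of the 3 parental libraries, and bars are the means of 3 libraries. The MDA231-LN points sit near -1.49 in the middle block and near -0.90 in the distal block, while all expressed genes and chromosome 11 up to 70 Mb stay near 0 in both lines.

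All 7 members of the proximal block were lower, most of them by little. FADD (chr11:70203296-70207390), the adaptor that links death receptors to caspases, was at 42.4, 45.5 and 42.4 CPM in parental and 20.4, 20.3 and 21.3 in MDA231-LN. The lines did not overlap, and the level was 2.10-fold lower, although 59.8% of its exonic bases lie inside another annotated gene. CTTN (chr11:70398404-70436584), which encodes the actin-binding protein cortactin, was at 286, 285 and 291 CPM in parental and 234, 234 and 248 in MDA231-LN. Its change of -0.27 ± 0.05 was called and was the smallest of the 7. The liprin PPFIA1 (-0.30), the scaffold SHANK2 (-0.34) and the NAD synthetase NADSYN1 (-0.40) were close to it, and DHCR7, the last enzyme of cholesterol synthesis, fell by 0.86.

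The step into the middle block fell in a stretch of 341 kb between NADSYN1 and XNDC1N. NADSYN1 was at 44.6, 44.4 and 44.4 CPM in parental and 34.3, 34.0 and 33.0 in MDA231-LN. RNF121 (chr11:71929018-71997597), a ubiquitin ligase of the secretory pathway and the second gene of the middle block, was at 28.2, 29.2 and 26.1 CPM and 9.89, 9.65 and 9.35. The lines were separate for both genes, but the ratio was 1.32-fold for NADSYN1 and 2.89-fold for RNF121. The next genes in order were IL18BP, which binds the cytokine IL-18, at -1.58, the spindle protein NUMA1 at -1.69, the anaphase-promoting complex subunit ANAPC15 at -0.73, the phosphatase INPPL1 at -1.93, CLPB at -1.50, the phosphodiesterase PDE2A at -1.93 and ARAP1 at -2.06.

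The other end of the middle block was less sharp. ME3, the mitochondrial malic enzyme, was at 24.0, 26.3 and 23.4 CPM in parental and 6.92, 7.32 and 8.38 in MDA231-LN, a change of -1.70. Of the exonic bases of ME3, 64.6% lie inside another annotated gene. The first row of the distal block, the long noncoding RNA ENSG00000255250, was at 0.792, 2.41 and 1.39 CPM and 2.31, 2.05 and 3.39, and was not called. Then came PRSS23, a secreted serine protease, at -1.03, FZD4 at -0.32 (not called), TMEM135 at -1.70, the melanosome GTPase RAB38 at -1.53 and the lysosomal protease CTSC at -1.25. The changes of PRSS23 and FZD4 were in the range of the distal block, and those of TMEM135 and RAB38 were nearer to the median of the middle block. After CTSC came NAALAD2 at 0.10 (not called), ENSG00000280385 at -0.78 and CHORDC1 at -0.91.

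In windows of 5 Mb the medians were -1.40, -1.49, -1.29 and -1.48 from 70 to 90 Mb. From 90 to 135 Mb they lay between -1.08 and -0.70. The window from 65 to 70 Mb, which holds the end of the raised segment and the start of the low one, had a median of 0.11 with 40 genes lower and 46 higher. Gene density was uneven: 44 members lay between 115 and 120 Mb and 6 between 80 and 85 Mb.

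**Figure D3:**
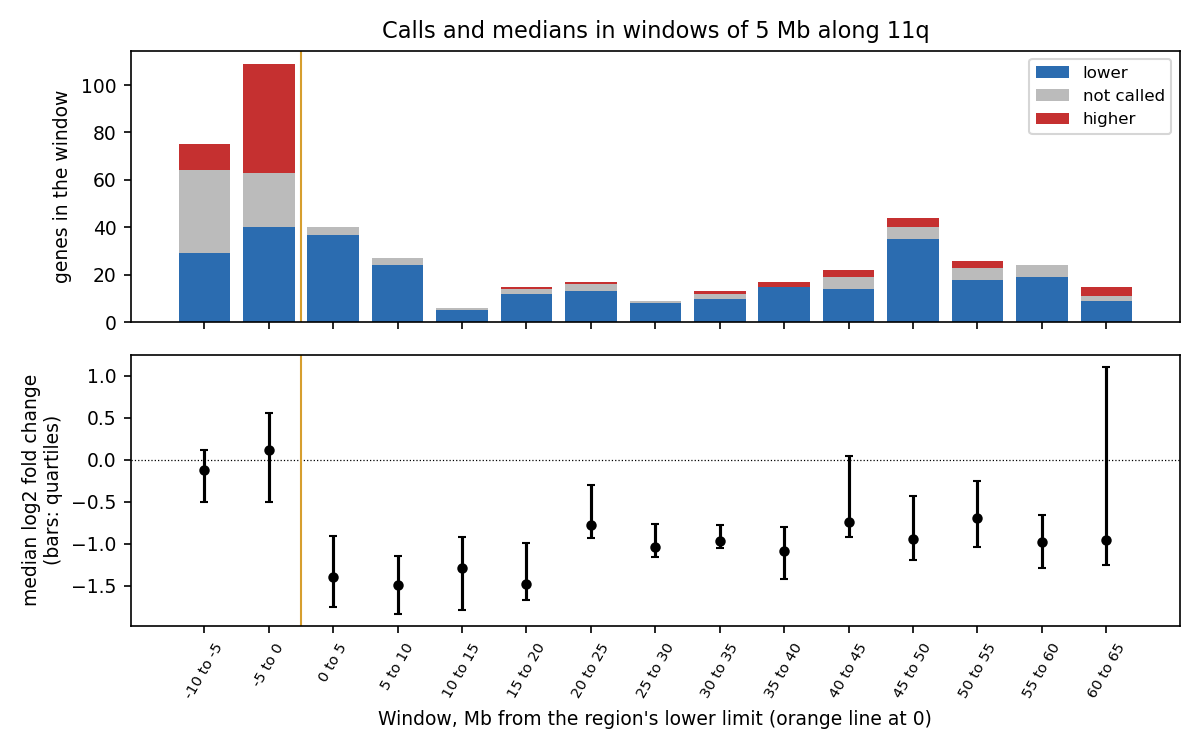
The upper panel counts expressed genes per window of 5 Mb that were lower, not called or higher in MDA231-LN, and the lower panel gives the median log2 fold change with its quartiles. Window positions are distances in Mb from the lower limit of the region, marked by the orange line. Medians are below -1.2 in the first 4 windows inside the region and above -1.1 in the others.

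The members with the most counts followed the shift to different degrees. HSPA8, the constitutive HSP70 chaperone, was at 2884, 3099.8 and 2959 CPM in parental and 2548, 2671 and 2643 in MDA231-LN. All 3 MDA231-LN libraries were lower, but the change was -0.19 ± 0.05, the smallest among the 6 members with the highest mean CPM. It was not called under upper-quartile scaling (adjusted p = 0.136). APLP2, a relative of the amyloid precursor protein, was at 1522, 1627 and 1515 CPM in parental and 523, 544 and 531 in MDA231-LN. That is 2.92-fold lower, a larger drop than the distal block's median. The ribosomal protein genes RPS3 and RPS25 fell by 1.47 and 0.70, where their neighbours had medians of -1.48 and -1.07. PRSS23 and TMEM123 fell by 1.03 and 0.91.

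The lists below group members by known function. They hold 131 members in 12 lists, and were written with earlier results of these libraries known, so their direction is no independent evidence. Over all genes tested, 31.2% were lower and 31.6% higher, with a median of 0.02. Every listed member lies in the region, so the nearer comparison is with its members as a whole. Of these 275, 219 were lower and 19 higher, with a median of -1.002. A list in which most or all members fell therefore describes the regional shift. Whether any list differed from the other members was not tested.

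Of 20 listed genes of the 11q13 amplicon stretch, 17 were members, and all 17 were lower, with a median of -1.43. RSF1, a chromatin remodelling factor, was at 102, 94.6 and 108 CPM in parental and 27.3, 28.4 and 22.5 in MDA231-LN. CLNS1A, a subunit of the methylosome, was at 104, 108 and 99.4 CPM and 28.5, 31.3 and 32.1. The lines were well apart for both genes, at 3.90-fold and 3.39-fold. The adaptor GAB2 fell by 1.97, the BRCA2-binding EMSY fell by 1.60 and THAP12 fell by 1.56. PAK1, a kinase downstream of Rac, fell by only 0.68 in the middle of the block, where its neighbours had a median of -1.52. AQP11 was listed at 0 and KCTD21 was under 1 CPM, but 100% and 80.1% of their exonic bases lie inside other genes, so these levels cannot be read firmly.

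All 12 members among 14 DNA damage and checkpoint genes were lower, with a median of -1.12. MRE11, a nuclease that senses double-strand breaks, was at 104, 107 and 115 CPM in parental and 50.5, 48.2 and 49.4 in MDA231-LN. The checkpoint kinase CHEK1 was at 134, 147 and 131 CPM and 77.3, 77.3 and 72.5. Neither gene overlapped between the lines, with drops of 2.20-fold and 1.81-fold. ATM, the kinase that MRE11 helps to activate, fell by 1.32, and its neighbour NPAT, a regulator of histone genes, fell by 1.42. H2AX, the histone variant phosphorylated at breaks, fell by only 0.31 against a neighbour median of -0.99.

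YAP1 (chr11:102110447-102233424) was at 300, 291 and 307 CPM in parental and 155, 149 and 149 in MDA231-LN. The lines were separate, and the change of -0.99 ± 0.05 was close to that of its neighbours (-1.002). All 8 members among 13 listed YAP1, apoptosis-inhibitor and caspase genes were lower, with a median of -1.06. BIRC2 and BIRC3, the cellular IAP ubiquitin ligases, fell by 0.77 and 1.79, the inflammatory caspase CASP4 fell by 1.06 and the Notch co-activator MAML2 fell by 1.49. Of the exonic bases of BIRC3, 55.8% lie inside another gene. CARD18, a caspase-1 inhibitor, was at 2.25, 1.58 and 4.28 CPM and 0, 0.0554 and 0.514, and fell by 3.78.

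The matrix metalloproteinase cluster beside YAP1 had few counts. Of its 9 genes, 8 were under 1 CPM, and 6 of these had no counts. MMP1 and MMP10 were listed at 0 in all 6 libraries, and 100% of their exonic bases lie inside other annotated genes, so their level could not be read from this table. MMP13, a collagenase, was the only member, at 0, 0.444 and 0.161 CPM in parental and 2.97, 4.27 and 3.14 in MDA231-LN. All 3 MDA231-LN libraries were above all 3 parental ones, and its change was 4.08 ± 0.52, or 5.23 without parental replicate 2.

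Of the 11 other proteases, 8 were members, 6 of them lower, none higher and 2 not called, with a median of -1.07. ADAMTS15, a secreted metalloproteinase of the proteoglycan-degrading family, was at 149, 154 and 145 CPM in parental and 18.3, 17.1 and 15.3 in MDA231-LN. With an 8.85-fold drop it went well beyond its neighbours. CTSC, PRSS23 and the beta-secretase BACE1 fell by 1.25, 1.03 and 0.80. The matriptase gene ST14 had a change of -0.95 at 0.666 to 2.19 CPM and was not called.

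All 14 members among 20 transcription and chromatin regulators were lower, with a median of -1.39. ETS1, the founding ETS-family transcription factor, was at 391, 415 and 438 CPM in parental and 182, 185 and 181 in MDA231-LN. EED (chr11:86244753-86278813), a core subunit of the Polycomb complex PRC2, was at 52.5, 59.2 and 55.1 CPM and 8.76, 8.15 and 10.4. Both were separate between the lines, but ETS1 fell 2.27-fold, near its neighbours, whereas EED fell 6.10-fold, more than its neighbours by 1.29 on the log2 scale. The histone methyltransferase KMT2A fell by 1.66, and 55.6% of its exonic bases lie inside another annotated gene.

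CBL, a ubiquitin ligase for receptor tyrosine kinases, was at 197, 162 and 200 CPM in parental and 74.8, 64.5 and 63.3 in MDA231-LN. ARRB1, the beta-arrestin that switches off G protein-coupled receptors, was at 58.7, 62.1 and 61.8 CPM and 5.28, 6.21 and 4.93. CBL was 2.76-fold lower and ARRB1 11.1-fold lower, with no overlap between the lines.

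Among mitochondrial and metabolic genes 20 of 24 were members, with 19 lower, none higher and a median of -1.04. UCP2, an uncoupling protein of the inner membrane, was at 90.7, 92.1 and 80.2 CPM in parental and 16.7, 13.97 and 13.9 in MDA231-LN. TMEM126B, an assembly factor of complex I, was at 56.1, 59.5 and 60.9 CPM and 16.03, 17.5 and 19.0. The gap between the lines was 5.89-fold for UCP2 and 3.36-fold for TMEM126B. SC5D, an enzyme of cholesterol synthesis, was at 67.3, 68.4 and 71.6 CPM and 65.8, 64.2 and 67.3, and was the only one not called. SDHD, NDUFC2 and ATP5MG were listed at 0, with 95.4%, 86.7% and 100% of their exonic bases inside other genes.

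All 5 members among 8 chaperone and ribosomal genes were lower, with a median of -1.22. HYOU1, a chaperone of the endoplasmic reticulum, was at 388, 400 and 383 CPM in parental and 164, 165 and 174 in MDA231-LN. SERPINH1, the collagen chaperone, was at 273, 294 and 259 CPM and 88.6, 92.6 and 98.3. Neither overlapped between the lines, at 2.33-fold and 2.95-fold.

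Of 17 vesicle trafficking genes, 15 were members, with 13 lower, 2 higher and a median of -1.08. PICALM, a clathrin adaptor, was at 296, 323 and 320 CPM in parental and 99.3, 104 and 101 in MDA231-LN, and the Golgi GTPase RAB6A fell by 1.65. STT3A, the catalytic subunit of oligosaccharyltransferase, fell by 1.10. The 2 higher genes were the sorting receptor SORL1 and the Rab27 effector SYTL2.

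Of 11 listed immune genes, 4 were members and 7 were under 1 CPM. The T cell genes CD3D, CD3E and CD3G had no counts. P2RY2, a nucleotide receptor, was at 27.6, 29.7 and 29.3 CPM in parental and 4.25, 4.71 and 4.93 in MDA231-LN, a drop of 6.23-fold. IL18BP fell 2.99-fold, and TIRAP (-0.39) and P2RY6 (-0.30) were not called.

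Adhesion and guidance molecules had the widest range of the 12 lists. Of 24 listed, 17 were members, and 9 were lower, 5 higher and 3 not called, with a median of -0.37 and a range from -4.15 to 12.71. NCAM1, CADM1, NTM, IGSF9B and MPZL3 were the 5 higher genes. ESAM, MCAM, CDON, VSIG2, KIRREL3, MPZL2, ROBO3, FAT3 and NECTIN1 were the 9 lower ones. The first 4 of these fell below their neighbours, and all 5 higher genes departed upward, as did all 19 higher members of the region.

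To describe such departures, each gene's fold change was set against the median of its 20 nearest expressed neighbours, 10 on each side, in a second edgeR quasi-likelihood fit. That median was taken as fixed, so its own error is not counted in the p-values. A gene departed where the adjusted p was under 0.05 and the difference was at least 1 on the log2 scale. By this rule 33 members departed upward and 16 downward, against 12.2% and 4.77% of all genes so tested and 10.2% and 4.57% of those with at least 1 CPM. The other 226 did not, and 167 of the 275 (60.7%) lay within 0.5 of their neighbours, beside 64.5% of all tested genes and 68.2% of those with at least 1 CPM. All 19 higher members were among the 33, and the other 14 were not called in either direction. No member that departed upward was lower, and all 16 that departed downward were. With neighbour medians mostly well below 0, this pattern follows largely from the rule. Of the 33, 19 had a mean under 5 CPM, as did 3 of the 16.

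**Figure D4:**
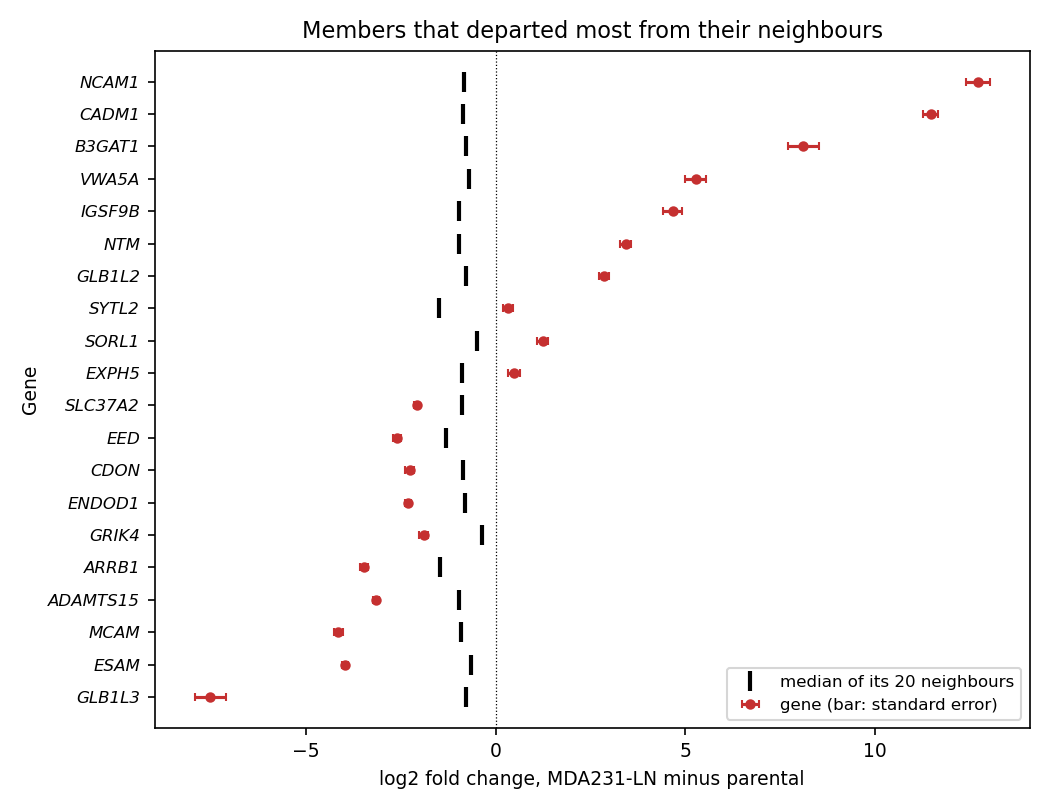
Log2 fold change of the 20 members that departed most from their neighbours, 10 in each direction, among those with a symbol, a mean of at least 5 CPM and no overlap between the lines (red points, bars are standard errors), with the median of each gene's 20 neighbours as a black tick. Ticks lie between -1.5 and -0.3, while the genes run from GLB1L3 at -7.52 to NCAM1 at 12.71. Fitted values of NCAM1, CADM1, B3GAT1 and GLB1L3 depend on the prior count, because 1 line had almost no counts.

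The strongest rises were of genes at or near 0 in the parental line. NCAM1 (chr11:112961247-113278436), the neural cell adhesion molecule also known as CD56, had 0, 0 and 0 counts in parental and 955, 828 and 865 in MDA231-LN. It was at 46.4 ± 2.28 CPM in MDA231-LN (SD, n = 3), at least 787-fold higher than the floor of 3 counts over the parental group. CADM1 (chr11:115169218-115504957), an adhesion molecule first described as a tumour suppressor in lung cancer, had 0, 2 and 0 counts and 2523, 2475 and 2451. At equal depth, the MDA231-LN level was 3323 times the parental one, with a 95% counting interval from 919.6 to 27443. Both parental counts are in replicate 2: the fitted log2 fold change of CADM1 was 11.46 with all libraries, 14.23 without parental replicate 2 and 10.88 without parental replicate 3. Both genes went from undetected or almost so in 3 libraries to clearly expressed in the other 3.

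Further along the arm, VWA5A was at 0.305, 0.380 and 0.268 CPM in parental and 11.9, 12.2 and 13.003 in MDA231-LN. IGSF9B, an immunoglobulin-family adhesion molecule of inhibitory synapses, was at 0.548, 0.317 and 1.02 CPM and 17.0, 18.2 and 14.3. NTM (chr11:131370478-132336822), or neurotrimin, a GPI-anchored adhesion molecule of neurons, was at 2.62, 2.79 and 2.36 CPM and 26.5, 29.9 and 27.0. No parental library reached the lowest MDA231-LN library in these 3 genes, and the rises were 38.4-fold, 25.3-fold and 10.8-fold. Their neighbours had medians of -0.70, -0.97 and -0.96.

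SORL1, SYTL2 and EXPH5 rose less, in surroundings that fell. SORL1 (chr11:121452314-121633763), a receptor that sorts the amyloid precursor protein, was at 7.68, 5.39 and 7.76 CPM in parental and 18.3, 15.4 and 15.4 in MDA231-LN, a change of 1.23 ± 0.15. SYTL2 was the only higher member of the middle block, at 12.005, 14.01 and 13.1 CPM and 14.3, 16.5 and 18.04. EXPH5, another Rab27 effector, was at 8.59, 8.18 and 11.2 CPM and 15.6, 11.6 and 11.8. For SYTL2 and EXPH5 the lines were apart by little, and the changes were 0.32 ± 0.13 and 0.47 ± 0.16. Being called higher did not hold for SYTL2 without parental replicate 1 (adjusted p = 0.117) or 3 (0.0514) or MDA231-LN replicate 2 (0.0780) or 3 (0.155), nor for EXPH5 without parental replicate 2 (0.0554) or MDA231-LN replicate 1 (0.112). Against neighbour medians of -1.49 and -0.90 they stood 1.81 and 1.37 higher.

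At the end of the arm 3 adjacent genes moved in opposite directions. GLB1L3 (chr11:134274245-134319564), a beta-galactosidase-like gene, had 201, 157 and 196 counts in parental and 0, 0 and 3 in MDA231-LN. Its neighbour GLB1L2 (chr11:134331874-134378341), of the same family, was at 5.06, 4.63 and 5.89 CPM and 40.2, 37.8 and 35.5. B3GAT1 (chr11:134378504-134412242), the glucuronyltransferase that makes the HNK-1 (CD57) epitope, had 2, 0 and 0 counts and 280, 190 and 259. The first was nearly lost in MDA231-LN while the other two appeared or rose. At equal depth, GLB1L3 was 207 times higher in parental (95% counting interval 70.5 to 1007), B3GAT1 was 325 times higher in MDA231-LN (89.7 to 2690), and GLB1L2 was 7.24-fold higher there. The few counts of the low line sat in 1 library each: the fitted log2 fold change of B3GAT1 went from 8.11 to 10.86 without parental replicate 1 and to 7.52 without parental replicate 3, and that of GLB1L3 went from -7.52 to -10.59 without MDA231-LN replicate 3. The promoters shown above for GLB1L3 and B3GAT1 are both rich in CG.

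**Figure D5:**
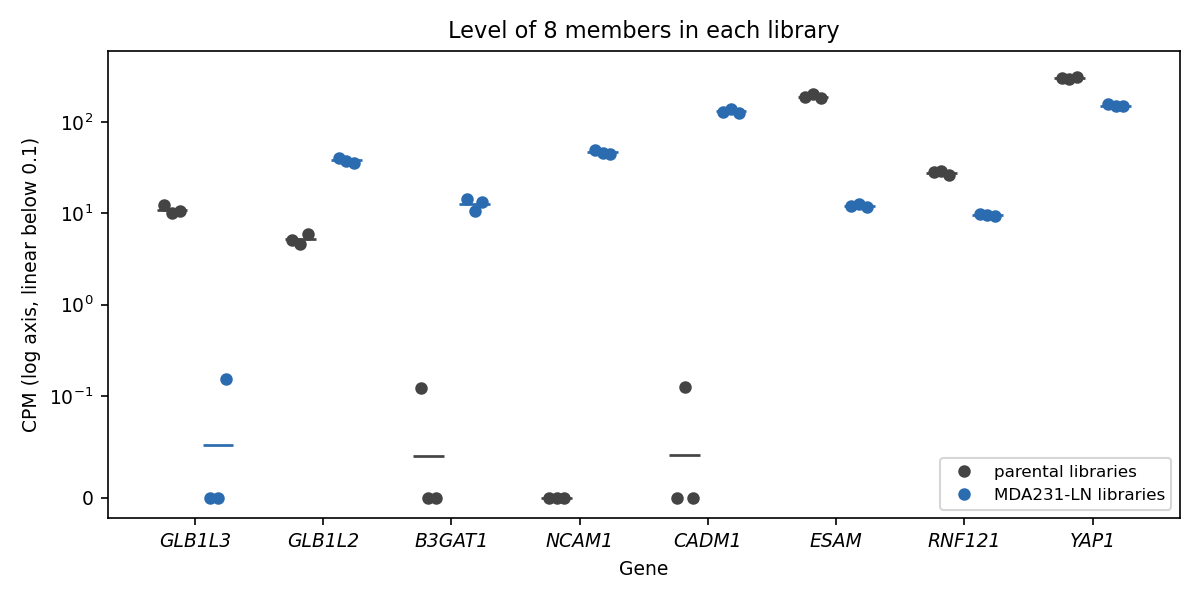
CPM of 8 members in each library, on an axis that is logarithmic above 0.1 and linear below it; bars are means of 3 libraries. GLB1L3 and ESAM are lower in MDA231-LN, GLB1L2, B3GAT1, NCAM1 and CADM1 are higher, and RNF121 and YAP1 fall with their blocks.

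Several genes that fell below their neighbours also encode adhesion molecules. ESAM (chr11:124752583-124762290), an endothelial adhesion molecule of tight junctions, was at 186, 201 and 181 CPM in parental and 12.1, 12.6 and 11.7 in MDA231-LN. The lines were far apart, at 15.6-fold, in a place where the neighbours had a median of -0.65. VSIG2, the next gene, fell by 2.10 and the antisense gene ESAM-AS1 fell by 1.83. Strand use in the counting is not given, so reads of ESAM and ESAM-AS1 may not be separable. The endothelial marker PECAM1 was at 6.91 to 10.9 CPM in parental and 8.38 to 8.76 in MDA231-LN and overlapped between the lines.

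MCAM (chr11:119308529-119321521), the adhesion molecule CD146, was at 72.2, 75.05 and 65.2 CPM in parental and 3.07, 4.38 and 4.47 in MDA231-LN. It was 17.8-fold lower with no overlap, but 57.3% of its exonic bases lie inside CBL. CDON, a co-receptor for hedgehog proteins, was at 35.9, 30.2 and 34.3 CPM and 6.86, 8.04 and 5.96. GRIK4, a kainate receptor subunit, was at 27.5, 24.8 and 28.2 CPM and 7.79, 6.93 and 6.94. These 2 fell 4.82-fold and 3.72-fold, where their neighbours had medians of -0.86 and -0.36.

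ENDOD1 was at 109, 119 and 115 CPM in parental and 23.0, 21.6 and 24.4 in MDA231-LN. SLC37A2, a sugar phosphate transporter of the endoplasmic reticulum, was at 194, 199 and 195 CPM and 48.7, 42.4 and 47.3. Both lay well below their neighbours, with drops of 4.97-fold and 4.24-fold. MIR100HG, the host transcript of a microRNA cluster, fell by 1.35 where its neighbours had a median of only -0.31. Beside it, SORL1 rose and SC5D was not called, so neighbours in this stretch differed from each other.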

How the data were processed

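RNA of 6 libraries (3 per line) was sequenced as paired reads. Reads were aligned to GRCh38 with STAR and counted with featureCounts from Subread, per the submitters' processing notes; the file header gives featureCounts version 2.0.1 and Ensembl release 105. The deposited values are raw counts per gene for each library. Settings for strand and for reads in overlapping genes are not given in the sources used here.

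From these counts, edgeR 4.0.16 (TMM scaling, filterByExpr, quasi-likelihood test, Benjamini-Hochberg adjustment over all tested genes) compared the lines. The log2 levels per library use a prior count of 2, and fold changes use edgeR's default prior count. Intervals and floors (3 counts) cover counting error only. Segments minimised the summed absolute deviation, with at least 15 genes and a penalty of 2 times the mean absolute deviation times the natural log of the number of genes. Gene types and exons come from GENCODE release 29. Overlaps count exonic bases inside the start-to-end span of another gene, introns included. The methods were tested on simulated data.

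The region, its members and the gene lists were chosen with earlier results of these data known. Named genes were, for each direction, up to 10 departing members with the largest difference among those with a symbol, a mean of at least 5 CPM and no overlap between the lines, the 2 members on each side of a boundary, the 6 with the highest mean CPM, up to 3 per list with the smallest adjusted p and those nearest the thresholds. Other members were named after their values were seen. Of the 12 gene lists, 1 is not reported here. Replicate numbers do not pair the libraries. DESeq2 1.42.0, other scalings, no filter, a replicate block, other thresholds and leaving out each library were tried.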

Additional observations from a re-analysis of the deposited data

How the results depend on the processing

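Upper-quartile scaling moved the median fold change of the members from -1.002 to -0.89 and that of all tested genes from 0.02 to 0.13; lower genes then made up 39.95% of all calls instead of 49.7%. With a mean of at least 5 CPM, 10 members were higher instead of 19 and the median was -1.04. Leaving out 1 library at a time gave 216 to 219 lower and 15 to 19 higher members, medians of -1.03 to -0.98, and 28 to 32 upward and 14 to 18 downward departures. The cause of these differences was not tested, other than that fewer genes enter at 5 CPM. With the replicate number as a block, 217 members were lower and 19 higher, with a median of -1.003, 32 upward and 15 downward departures; the numbers share no deviations (correlations of -0.00, 0.00 and -0.05), so the block is given here only. DESeq2 called 217 lower and 18 higher. No result changed direction under any alternative run. Among single genes, 7 of the values recomputed were no longer called (HSPA8, SYTL2 and EXPH5, given with the genes) and 2 became called, both of ENSG00000255250 (upper-quartile scaling, adjusted p = 0.0422; without parental replicate 2, 0.0124). Low counts limit the members under 5 CPM most, and genes whose exons lie inside others cannot be read firmly.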

Other observations

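Rows of the region under 1 CPM were no members, and 27 of the 1125 passed the filter on low counts. Of these 27, 9 were lower and 7 higher in MDA231-LN. Over all rows under 1 CPM, 112 of 1337 tested were lower and 442 higher. Rows this low can pass the filter through the line with more counts alone, so their calls and directions are only a description. FLI1, an ETS-family transcription factor next to ETS1, had 13, 27 and 13 counts in parental and 0, 0 and 0 in MDA231-LN. CASP1, an inflammatory caspase near CASP4, had 29, 25 and 29 counts and 6, 6 and 8. OPCML, an adhesion molecule of the same family as its neighbour NTM, had 26, 15 and 41 counts and 6, 3 and 8, the opposite direction to NTM. MMP3, in the same cluster as MMP13, had 3, 3 and 1 counts and 16, 19 and 33. CRTAM, a binding partner of CADM1, had 0, 1 and 2 counts and 19, 17 and 44. These rows were picked after their values were seen.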
